A study of Brassica napus with 6 samples.

Results

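The AILP family is a small group of plant proteins named after AILP1, an aluminium-induced-like protein. Its transcripts were followed in cadmium-treated roots of hydroponic Brassica napus (oilseed rape, cultivar Nourin No.16). The 5 members, AILP1, AT4G27450, AT3G15450, AT3G22850 and AT5G43830, were taken by name from the single-gene probe sets of the Arabidopsis ATH1 array, which cover 13350 annotated genes. Each member was read by 1 probe set, so the brightest probe set of each gene was also its only one. The members were chosen by their lower signal with glutathione, which AILP1, AT4G27450 and AT3G15450 had already shown on these arrays, together with the rest of their family. The difference between treatments is therefore given below as a description, with no test.

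Roots of both groups were exposed to 10 µM cadmium chloride for 2 days. In 3 samples cadmium was given alone, and in the other 3 reduced glutathione (GSH), the tripeptide thiol that plants use to build cadmium-binding phytochelatins, was given with it. The labels state a GSH concentration of 100 mM, and give the plants' age as 4 weeks after germination in one place and as 2 to 3 weeks in another. Both groups carried cadmium, so neither shows the family in roots without the metal. The labels call the 3 samples of a group biological replicates and do not say how many of the 6 plants of a container went into a sample. Labelled oilseed rape RNA was hybridised to Arabidopsis probes, so each name is that of the Arabidopsis gene the probes were made for, and the several oilseed rape copies of a gene were not read apart. The values are log2 signals of whole roots, in which fewer cells with a transcript and less transcript per cell cannot be told apart.

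The first proteins of this kind were found in wheat roots treated with aluminium, and the family keeps that name. Its members carry a domain related to the glutamine-cleaving part of class II glutamine amidotransferases, the enzyme class that includes asparagine synthetase, although an enzymatic role has not been settled for them. In Arabidopsis several members, AT3G15450 and AT4G27450 among them, are known as transcripts that accumulate in darkness and sugar starvation and are repressed by sucrose. The starvation response runs through the kinase SnRK1 and through bZIP transcription factors of the C and S1 groups, and it includes genes that break down branched-chain and other amino acids as a substitute fuel.

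Most probe sets of the deposited table carry no information on the treatment. Of 22746 probe sets, 20318 ranged by no more than 0.01 (log2) over the 6 arrays and are called constant here, and 2428 varied. Across the varying probe sets, arrays of the same group correlated at 0.951 to 0.990 and arrays of different groups at 0.910 to 0.974. In the limma fit with Benjamini-Hochberg adjustment, 0 of 2428 (0%) passed at an adjusted p under 0.05, and at an unadjusted p under 0.05 there were 312 (12.9%). Of 16 genes listed as root markers, 5 were matched to a probe set. Among them PYK10, an abundant root beta-glucosidase, was constant at 7.06, and the root peroxidase AT4G11290 was at 6.29 with cadmium alone and 6.91 with GSH. The others were dimmer than PYK10, with EXPA7 constant at 6.50, AT4G30170 constant at 5.96, and AT5G17820 at 6.42 with cadmium alone and 6.48 with GSH. Of 14 green tissue markers 2 were matched, both constant, at 6.04 and 6.07. For comparison, 27 control probe sets for bacterial genes had means from 5.44 to 6.05, a range that takes in the root marker AT4G30170 and the dimmer green tissue marker.

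The family split into members that varied and members that did not. AILP1, AT4G27450 and AT3G15450 varied, and in each the highest GSH array lay below the lowest cadmium array. AT3G22850 and AT5G43830 were constant at 6.28 and 6.44 on all 6 arrays, with a range of at most 3.0e-09, so a response of either sign could not appear in them. All 5 members lay above the highest bacterial control mean on every array. The 3 varying members had a median log2 difference of -0.79, cadmium with GSH minus cadmium alone, beside a median of -0.0007 over all varying probe sets. Among all varying probe sets, 239 (9.84%) had all GSH arrays below all cadmium arrays. The members were chosen for lying in that class, so nothing is read from their count.

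**Figure D1:**
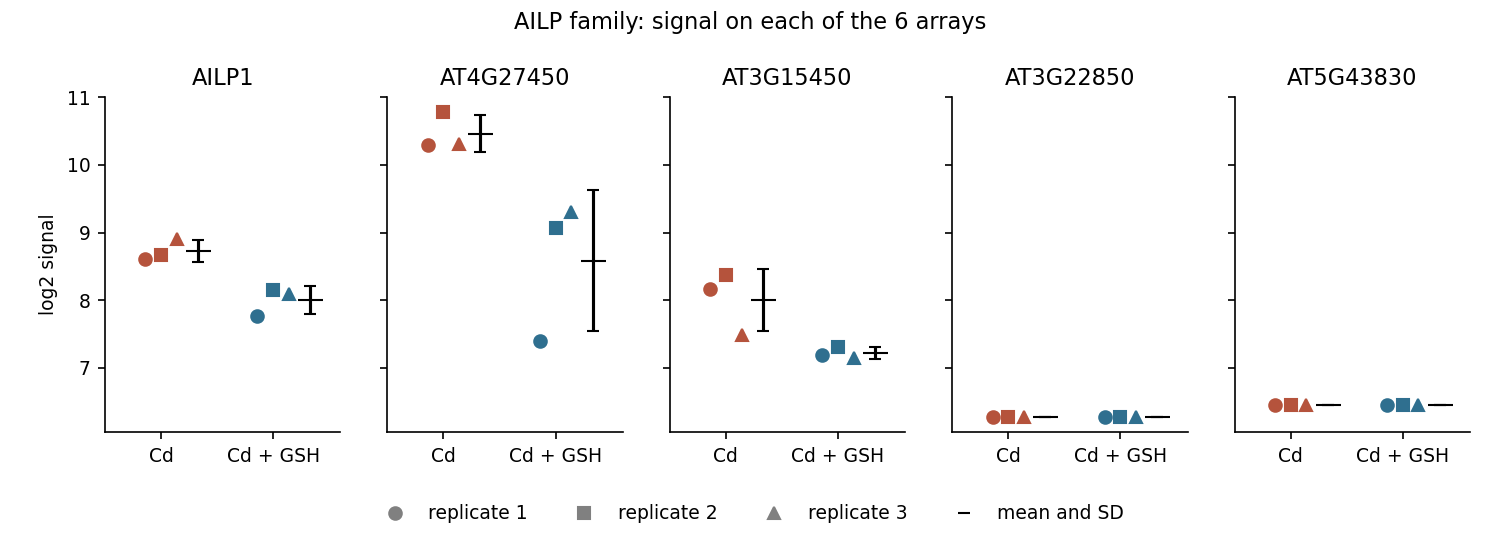
Log2 signal of the 5 AILP family members on each of the 6 arrays, 3 with cadmium alone (Cd) and 3 with cadmium and GSH. Marker shapes give the replicate number and black bars the group mean and SD; the groups are apart in AILP1, AT4G27450 and AT3G15450, while AT3G22850 and AT5G43830 hold 1 value throughout.

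AT4G27450 had the widest difference of the family. Its log2 signal was 10.30, 10.78 and 10.31 on the cadmium arrays of replicates 1, 2 and 3, and 7.39, 9.06 and 9.30 on the GSH arrays. The cadmium arrays lay closer together than the GSH arrays, and GSH replicate 1 lay far below the other GSH arrays. The group means were 10.46 ± 0.27 (SD, n = 3) and 8.58 ± 1.04 (SD, n = 3), a log2 difference of -1.88 (SE 0.54), or 3.68-fold lower signal with GSH. This and the other SEs of differences are the moderated SEs of the limma fit, which draws each variance toward a common value. Of the 2428 varying probe sets only 1 had a lower difference. The highest GSH array was still 1.00 below the lowest cadmium array. The SD of this gene among the GSH arrays was the highest of all 2428 varying probe sets, whose median was 0.04. Among the cadmium arrays its SD ranked 151 from the highest, beside a median of 0.05. Without GSH replicate 1 the log2 difference was -1.28.

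AILP1, the member for which the family is named, had a smaller and more even difference. Its log2 signal was 8.60, 8.67 and 8.91 with cadmium alone and 7.76, 8.15 and 8.09 with GSH. Cadmium replicate 3 was the highest array and GSH replicate 1 the lowest. The means were 8.73 ± 0.16 (SD, n = 3) and 8.001 ± 0.21 (SD, n = 3), a log2 difference of -0.73 (SE 0.13), or 1.65-fold lower. The groups were separated by 0.45, more than the range within either group, 0.30 with cadmium alone and 0.39 with GSH.

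AT3G15450, known in Arabidopsis for its rise in darkness and sugar shortage, differed by about as much as AILP1 but with another arrangement of arrays. Its log2 signal was 8.16, 8.37 and 7.49 with cadmium alone and 7.18, 7.31 and 7.15 with GSH. Here the spread lay in the cadmium group, where replicate 3 stood close to the GSH arrays, and the GSH arrays were nearly alike. The means were 8.01 ± 0.46 (SD, n = 3) and 7.21 ± 0.09 (SD, n = 3), a log2 difference of -0.79 (SE 0.23), or 1.73-fold lower. The gap between the groups was 0.18, against a range of 0.88 within the cadmium group. Without cadmium replicate 3 the log2 difference was -1.05, and without cadmium replicate 2 it was -0.61.

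**Figure D2:**
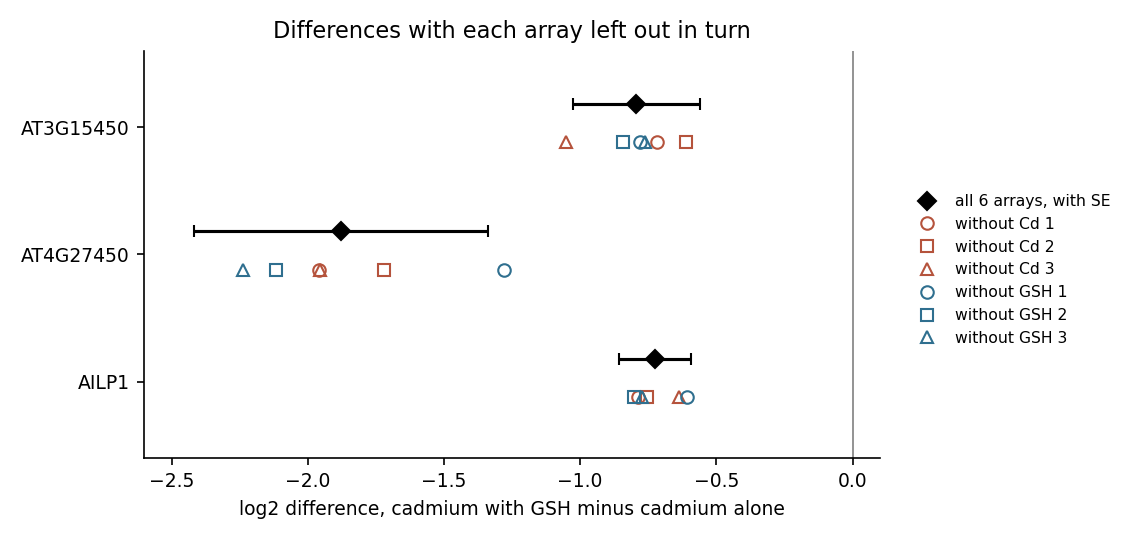
Log2 difference (cadmium with GSH minus cadmium alone) of the 3 varying members. Diamonds are from all 6 arrays, with the moderated SE of the limma fit as bars, and open symbols have each array left out in turn. All values are below 0, as they must be where the groups do not overlap. AT4G27450 runs from -2.24 to -1.28, AILP1 from -0.80 to -0.61 and AT3G15450 from -1.05 to -0.61.

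Of the 3 varying members, AT4G27450 had the larger difference, by an amount that depended on GSH replicate 1. The log2 ratio of AILP1 to AT4G27450 within an array was -1.74 ± 0.35 (SD, n = 3) in the cadmium group and -0.58 ± 0.84 (SD, n = 3) in the GSH group, with no overlap between the groups. The log2 ratio of AILP1 to AT3G15450 was 0.72 ± 0.61 (SD, n = 3) and 0.79 ± 0.19 (SD, n = 3) in the same order, a change of 0.07 that lay between -0.14 and 0.42 when any 1 array was left out. The ratio of AT4G27450 to AT3G15450 was 2.45 ± 0.34 (SD, n = 3) and 1.37 ± 1.03 (SD, n = 3), and its groups overlapped. Without GSH replicate 1 the change in the log2 ratio of AILP1 to AT4G27450 went from 1.15 to 0.67 and that of AT4G27450 to AT3G15450 from -1.08 to -0.50. Each probe set binds with its own strength, so only the change of a ratio between groups, not its level, can be read. The log2 differences of the 3 varying members ranked 2 (AT4G27450), 21 (AT3G15450) and 26 (AILP1) from the lowest among 2428.

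**Figure D3:**
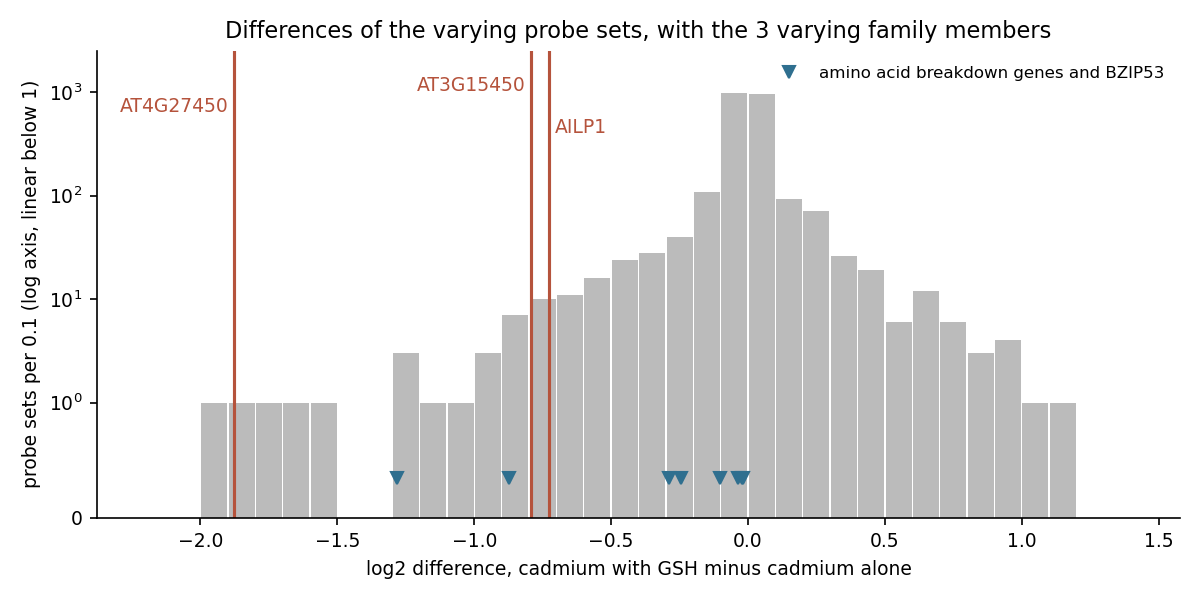
Number of varying probe sets in each 0.1 step of the log2 difference, cadmium with GSH minus cadmium alone (grey bars; the vertical axis is logarithmic above 1). Red lines mark AT4G27450 at -1.88, AT3G15450 at -0.79 and AILP1 at -0.73; blue triangles mark the 7 varying amino acid breakdown genes and BZIP53, all below 0.

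Over the 6 arrays the closest pair was AILP1 and AT4G27450, but beyond the difference between the groups their likeness rested on GSH replicate 1. Pearson's r between AILP1 and AT4G27450 was 0.919 and Spearman's rho 0.886 over 6 arrays. The groups are apart in each of these genes, so such a value restates in part that both are lower with GSH. After subtraction of the group means r was 0.704 for this pair, with GSH replicate 1 the lowest of its group in both genes, and without that array it was -0.323. For AILP1 and AT3G15450 r was 0.661 over the 6 arrays and -0.470 after subtraction of the group means. Cadmium replicate 3 was 0.18 above the cadmium mean in AILP1 and 0.52 below it in AT3G15450 (a deviation of -0.52), and without that array r was 0.932 over the other arrays and 0.402 after subtraction of their group means. For AT4G27450 and AT3G15450 r was 0.752 over the 6 arrays and 0.201 after subtraction of the group means. These correlations over few arrays describe the arrays and were not tested.

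The genes whose pattern was most like each member were found with the same measure on the same 6 arrays, so what the members share among them restates the correlations above. The candidates were the 772 other varying probe sets with 1 gene name and a mean above the bacterial controls, and likeness was Pearson's r of the log2 signals. The median r of the candidates was -0.04 with AILP1, -0.03 with AT4G27450 and -0.03 with AT3G15450. An r of at least 0.9 was reached by 7 candidates with AILP1, 8 with AT4G27450 and 15 with AT3G15450. The 5 genes nearest to AILP1 and the 5 nearest to AT4G27450 had 3 genes in common, whereas AT3G15450 shared none of its 5 with either.

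Nearest to AT4G27450 was AT2G43610, of the chitinase family, with r of 0.975 and, after subtraction of the group means, 0.950, or 0.526 without GSH replicate 1. Its log2 signal was 8.25, 8.39 and 8.41 with cadmium alone and 7.65, 8.07 and 8.16 with GSH. As in AT4G27450, GSH replicate 1 was the lowest array. By r after subtraction of the group means AT2G43610 ranked 3 of the 772. The expansin-like gene EXLB1, of a family related to wall-loosening proteins, ranked 5 at r of 0.931. EXLB1 was itself much lower with GSH, at 8.05 ± 0.48 (SD, n = 3) with cadmium alone against 6.79 ± 0.73 (SD, n = 3). The other genes near AT4G27450 were those it shared with AILP1. They were AT1G61900, with r of 0.948 to AT4G27450 and 0.956 to AILP1, AT5G16880, a VHS-domain protein of membrane sorting, with 0.945 and 0.938, and AT1G79210, an alpha subunit of the 20S proteasome, with 0.944 and 0.949. These 3 genes differed far less than the family, with log2 differences of -0.08, -0.12 and -0.09. AILP1 also had AT3G60270, of the blue-copper protein family, at r of 0.946, and AT4G27450 itself as the last of its 5 neighbours. AT3G60270 had a log2 difference of only -0.02, with means of 6.11 with cadmium alone and 6.09 with GSH. Its r with AILP1 after subtraction of the group means was 0.626. By that measure the 5 neighbours of AILP1 ranked from 35 (AT5G16880) to 94 (AT3G60270) of the 772 candidates.

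Nearest to AT3G15450 was BZIP53, an S1-group bZIP transcription factor that in Arabidopsis acts with C-group partners on amino acid metabolism genes. Its r with AT3G15450 was 0.988 over the 6 arrays, rho was 1.00, and r after subtraction of the group means was 0.975, or 0.724 without cadmium replicate 3. Its log2 signal was 6.72, 6.72 and 6.60 with cadmium alone and 6.58, 6.60 and 6.56 with GSH, so the arrays stood in the same order as in AT3G15450 over a range of only 0.17. The groups of BZIP53 were 0.004 apart, and its log2 difference of -0.10 (SE 0.04) had a limma adjusted p of 0.362. The next neighbours were AT2G23960, a class I glutamine amidotransferase-like protein, with r of 0.987, AT2G43620, of the chitinase family, with 0.984, AT5G03430 with 0.974, and AT3G19390, a cysteine protease with a granulin domain, with 0.964. After subtraction of the group means, AT5G03430 ranked 1 of the 772 by likeness to AT3G15450, at r of 0.997, and BZIP53 ranked 3. AT3G19390 differed about as much as AT3G15450, by -0.76 on the log2 scale. The loci AT2G43610 and AT2G43620 are numbered as neighbours on chromosome 2, yet one lay nearest AT4G27450 and the other near AT3G15450. BZIP53 ranked 75 among the 772 by likeness to AT4G27450 and 126 by likeness to AILP1.

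**Figure D4:**
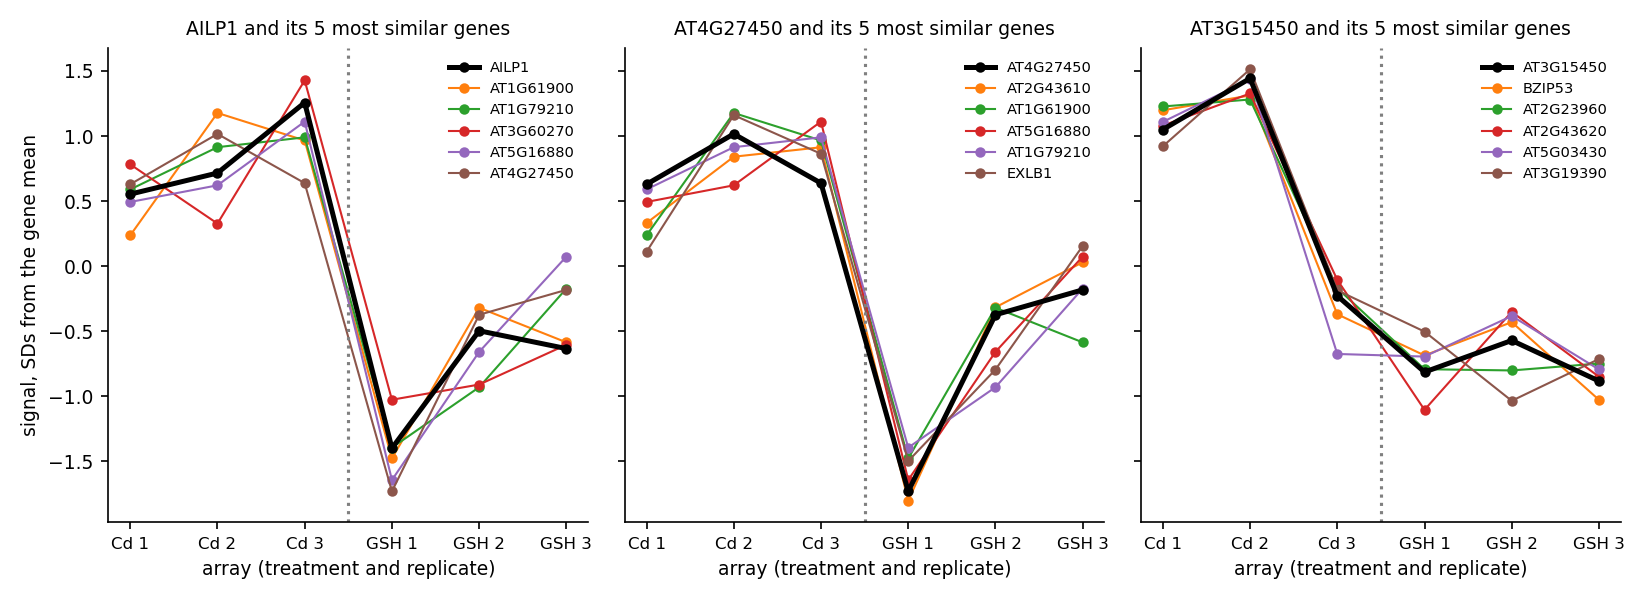
Signal of each varying member (black) and of its 5 most similar genes (colours) on the 6 arrays, in SDs from each gene's mean, so that size of change is not shown. AILP1 and AT4G27450 and their neighbours are lowest on GSH replicate 1; AT3G15450 and its neighbours are high on cadmium replicates 1 and 2 and lower on cadmium replicate 3 and the GSH arrays.

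To relate the family to sugar and energy shortage, genes of that response were taken from lists written from general knowledge of Arabidopsis. Of 27 markers of sugar and energy shortage 3 were matched to a single-gene probe set, and all 3 were constant. They were AT1G56220, a dormancy-associated gene, at 6.92, the ubiquitin ligase gene ATL8 at 6.07, and AT3G15630 at 5.93. Of 24 genes for SnRK1 subunits, its bZIP factors and trehalose phosphate synthases 5 were matched and only BZIP53 varied. The SnRK1 subunit gene AKINBETA1 was constant at 6.63 and the bZIP gene bZIP44 at 6.57. Of 19 autophagy genes 12 were matched and all were constant, from 6.00 to 7.84, as were the 3 matched of 22 genes of starch and sucrose breakdown and sugar transport, from 6.01 to 6.25. The 16 genes of glutamine amidotransferases and nitrogen assimilation had no match, and the 8 of the aluminium response had 1, AT1G51340, a citrate transporter, constant at 5.80. For the genes of these lists other than BZIP53, the values show neither a response nor the lack of one.

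Amino acid breakdown was the one list with several varying genes, and all of them had lower means with GSH. Of 17 genes 8 were matched and 7 varied. Their log2 differences ran from -1.28 to -0.02 with a median of -0.25, beside -0.0007 over all varying probe sets, of which 50.7% were below 0. The list was written with 2 of its genes, ALDH7B4 and MCCA, already known to be lower on these arrays, so it is not independent of that result. Without them the median of the other 5 was -0.04, close in size to the median absolute difference of 0.04 over all varying probe sets. In 4 of the 7, and in 2 of the 5, the groups did not overlap, and nothing is read from these counts beside the 9.84% of all varying probe sets that were lower in this way. None of the 7 passed, with limma adjusted p from 0.311 to 0.731, and 3 had an unadjusted p under 0.05.

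ALDH7B4, a stress-related aldehyde dehydrogenase, had log2 signals of 7.29, 8.86 and 7.80 with cadmium alone and 6.41, 6.68 and 7.01 with GSH. Its difference was -1.28 (SE 0.43), and cadmium replicate 2 stood above the rest. MCCA, which encodes the biotin-carrying part of a carboxylase of leucine breakdown, had 7.15, 7.98 and 6.66 with cadmium alone and 6.46, 6.30 and 6.41 with GSH. As in AT3G15450, replicate 2 was highest and replicate 3 lowest among its cadmium arrays and the GSH arrays lay together. IVD, isovaleryl-CoA dehydrogenase of the same pathway, had 7.30, 7.69 and 6.83 with cadmium alone and 6.96, 6.95 and 7.04 with GSH, so its groups overlapped. ALDH6B2, the methylmalonate-semialdehyde dehydrogenase of valine breakdown, had 7.25, 7.53 and 7.41 with cadmium alone and 7.18, 7.18 and 7.09 with GSH, a difference of -0.25 (SE 0.08).

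By the same measure MCCA and IVD lay nearer to AT3G15450 than to the other members. MCCA had r of 0.940 with AT3G15450, rank 7 of 772, against 0.571 with AILP1 and 0.679 with AT4G27450. IVD had r of 0.865 with AT3G15450, against 0.314 and 0.544. After subtraction of the group means r with AT3G15450 was 0.862 for MCCA and 0.932 for IVD, and without cadmium replicate 3 it was 0.643 and 0.633. ALDH7B4 and ALDH6B2 went otherwise. ALDH7B4 was nearest to AT4G27450, with r of 0.838 against 0.780 with AT3G15450, and ALDH6B2 had its highest r, 0.767, with AILP1. ETFQO, another gene of the list, went against MCCA and IVD. Its r was 0.895 with AILP1 and 0.269 with AT3G15450, or 0.859 and -0.844 after subtraction of the group means, over a range of only 0.04. Cadmium replicate 3 was the highest array of ETFQO, at 6.518, against 6.498 and 6.497 on the other cadmium arrays. Among the cadmium arrays it was also the highest in AILP1 and the lowest in AT3G15450, and r of ETFQO without it was not computed. Of the 6 amino acid breakdown genes among the candidates, 3 had r above 0.8 with AT3G15450 (MCCA, IVD and MCCB). With AT4G27450 there was 1 (ALDH7B4) and with AILP1 1 (ETFQO). Over all 772 candidates those shares were 6.48%, 4.02% and 3.63%. MCCA and ALDH7B4 were already known to be lower on these arrays, as the members were, so nothing is read from these counts. The differences between these correlations were not tested.

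**Figure D5:**
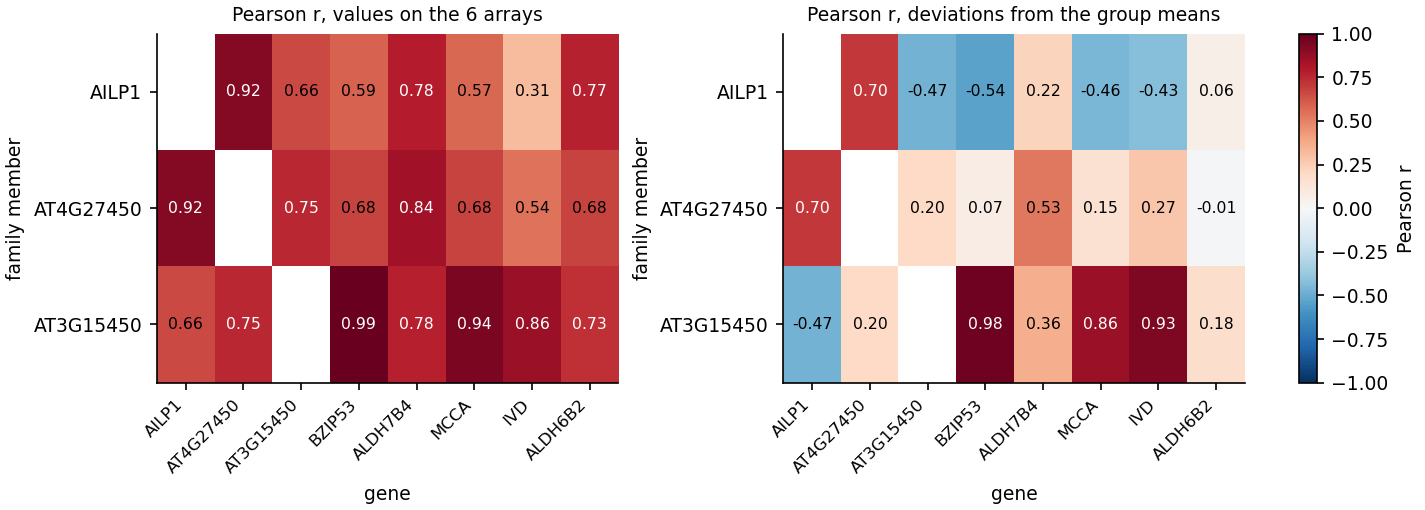
Pearson's r of each varying family member (rows) with the other members, BZIP53 and 4 amino acid breakdown genes (columns), from the log2 signals on the 6 arrays (left) and from deviations from the group means (right). Among the genes shown, AT3G15450 has its highest values with BZIP53, MCCA and IVD in both panels, and AILP1 with AT4G27450.

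Other measures of the arrays differed in how far they moved with the family. The actin 3' minus 5' control signal, which reflects how far labelled RNA reaches along a transcript, was 1.24 ± 0.05 (SD, n = 3) in the cadmium group and 1.45 ± 0.07 (SD, n = 3) in the GSH group, without overlap. GSH replicate 1, the lowest array for AILP1 and AT4G27450, had the highest value, 1.51. Pearson's r of this measure was -0.944 with AILP1, -0.882 with AT4G27450 and -0.598 with AT3G15450. The mean of 11 varying spiked-in control probe sets was 9.08 ± 0.08 (SD, n = 3) and 9.27 ± 0.18 (SD, n = 3), with overlap. Its r with the same 3 members was -0.312, -0.212 and -0.628. GSH replicate 1 was also the GSH array farthest from the cadmium arrays on the first principal component of the varying probe sets, at 7.03, against 3.85 and 3.50 for the other GSH arrays. That component had r of -0.825, -0.855 and -0.865 with the members in the same order. The part of these measures in the family's differences was not tested.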

How the data were processed

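Each of the 6 samples, 3 per group, was hybridised to 1 ATH1 array. The deposited table holds 1 log2 signal per probe set and array, the log base being inferred from the tested range, 5.20 to 11.40. Per the submitters' processing notes R 2.7.2 was used (background, normalisation, probe-set summary: not given in the sources used here). The values were used as deposited. The labels do not say whether replicates grew in separate containers. The p-values set each difference against the spread between samples of a group, as moderated by limma. If samples of a group shared a container, that spread does not cover differences between containers.

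Of 22810 probe sets, 64 controls were set aside. GEO's annotation named 1 gene for 13513 of the other 22746; 503 had several names and 8730 had none. List genes were matched by locus, or by symbol where neighbouring annotated genes lay on the same chromosome. Probe sets ranging over more than 0.01 entered a limma fit (lmFit and eBayes, version 3.58.1, under R 4.3.3) with Benjamini-Hochberg adjustment at 0.05, tested on simulated data. An exact permutation test of 3 arrays against 3 cannot give a p under 0.1, so none is given.

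The members and lists were chosen with earlier results of these data known. The rule for named genes took all members, up to 4 varying genes per list by size of difference and the 5 genes most like each varying member. ETFQO and MCCB were named outside this rule, for their correlations with the members. Alternatives covered normalisation, the replicate block, the range limit, dim probe sets, the eBayes prior and leaving out each array. Deviations of same-numbered arrays from their group means correlated at -0.111, -0.207 and 0.129. With 3 arrays per group these values cannot decide whether the numbers pair the samples, and the main fit did not pair them.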

Additional observations from a re-analysis of the deposited data

How the results depend on the processing

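The differences of AILP1, AT4G27450 and AT3G15450 were below 0 in every alternative run. The groups of these genes do not overlap, so leaving out 1 array could not have changed the sign. With quantile normalisation they were -0.77, -1.92 and -0.77, and with median centring -0.71, -1.87 and -0.78. With the replicate block they were -0.73, -1.88 and -0.79, the same by construction, since each block holds 1 array of each group. Their SEs were 0.08, 0.43 and 0.18 with the block, against 0.13, 0.54 and 0.23 without it. Leaving out 1 array gave -0.80 to -0.61 for AILP1, -2.24 to -1.28 for AT4G27450 and -1.05 to -0.61 for AT3G15450. Averaging the probe sets of a gene changed nothing, since each member has 1. Leaving out 1 array moved r of AILP1 with AT4G27450 between 0.876 and 0.971, with AT3G15450 between 0.581 and 0.932, and r of AT4G27450 with AT3G15450 between 0.652 and 0.851.

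The count of 0 called probe sets was 2 with quantile normalisation, 5 with a range over 0.1 and 42 with all probe sets, where the called differences were at most 2.0e-09, the size of rounding. It was 0 with median centring, the trend with robust eBayes, the filter on dim probe sets and the replicate block, where 301 had an unadjusted p under 0.05. Leaving out 1 array gave 0 to 13, the 13 without cadmium replicate 3. In the lists of amino acid breakdown, SnRK1 signalling and root markers 0 varying genes were called in the alternatives run. This held with 1 array left out too. The varying members were among the probe sets fitted, but no test of them is given, as they were chosen by this difference. Leaving ALDH7B4 and MCCA out of their list, and arrays out of the ratios between members, was chosen after seeing the data. The causes of these changes were not tested. With 3 arrays per group, and probes of another species, small differences cannot be resolved, and constant probe sets cannot show one.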
